A study of Bos taurus with 30 samples.

Results

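The genes described here are the leukocyte surface antigens, interleukins, chemokines and Toll-like receptors measured on bovine arrays of the uterine lining. They were found by symbol: names of the form CD with a number, IL with a number, CXCL, CXCR, CCL, CCR and TLR, leaving out IL6R, IL6ST and IL11RA. The rule used no measured value. It found 120 of 8073 named genes, on 135 of 13824 probes. Of these probes 132 carried 1 symbol, while 3 carried several symbols and are counted but not placed in a list. Among the 3, 2 were annotated with both CXCL12 and SDF1, names of 1 chemokine ligand. All 135 were among the 13818 probes tested.

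Caruncles are the raised, gland-free sites of the ruminant uterus where the placenta attaches, and the intercaruncular endometrium between them carries the glands. Each array held RNA of both tissues of 1 cow, in a pregnancy after artificial insemination (AI, 5 animals), after transfer of an embryo fertilised in vitro (IVF-ET, 5 animals) or after transfer of a cloned embryo, obtained by somatic cell nuclear transfer (SCNT, 5 animals), with 2 arrays for each animal. The labels used here give no breed, age or day of pregnancy, and the groups share no other stated treatment. Every value below is a log ratio of the 2 tissues in 1 animal, taken as log2, and folds rest on that reading. Which tissue stands on the positive side is not settled by the labels, so sides are called positive and negative. IVF-ET replicate 3, whose 2 arrays carry the same dye labels, was left out, and 14 animals remained.

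CD antigens are surface molecules named by the antibodies that bind them. Some mark 1 lineage, such as the CD3 chains on T cells, and others, such as CD59 and the tetraspanins CD9, CD63 and CD81, sit on most cells, epithelium included. Interleukins and chemokines are secreted signals: the first act on receptors of immune and epithelial cells, and the second guide leukocytes along gradients through receptors of the CCR and CXCR families. Toll-like receptors sense microbial molecules. In pregnancy the endometrium holds macrophages, T cells and NK cells whose numbers and places are known to change around the placenta.

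Few members passed between the tissues in the main fit, and the counts under other readings of the values are given at the end. With limma and Benjamini-Hochberg adjustment over all probes, 0 of 135 member probes passed the threshold of 0.05 in SCNT animals, where 1.85% of all probes tested did. The count was also 0 in IVF-ET and in AI animals, where 0% of all probes passed. In the mean of SCNT and IVF-ET, 1 member passed, CD59, against 3.37% of all probes. At an unadjusted p under 0.05 there were 10 members in SCNT, 4 in IVF-ET, 3 in AI and 9 in the mean of SCNT and IVF-ET. These are 7.41%, 2.96%, 2.22% and 6.67% of the members, beside 14.8%, 7.94%, 4.41% and 15.1% of all probes.

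Every SCNT animal lay on 1 side of 0 for 13 members, or 9.63%, beside 14.4% of all probes. In IVF-ET, with 4 animals, there were 19 such members (14.1%, beside 21.9%), and in AI there were 3 (2.22%, beside 4.93%). The 3 AI members, all positive, were the immune checkpoint molecule CD276, the interleukin 4 receptor chain IL4R and 1 probe annotated with both CXCL12 and SDF1. All 9 SCNT and IVF-ET animals lay on 1 side for 2 members (1.48%, beside 4.37%). These were CD59 on the positive side and, on the negative side, that same probe of CXCL12 and SDF1.

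**Figure D1:**
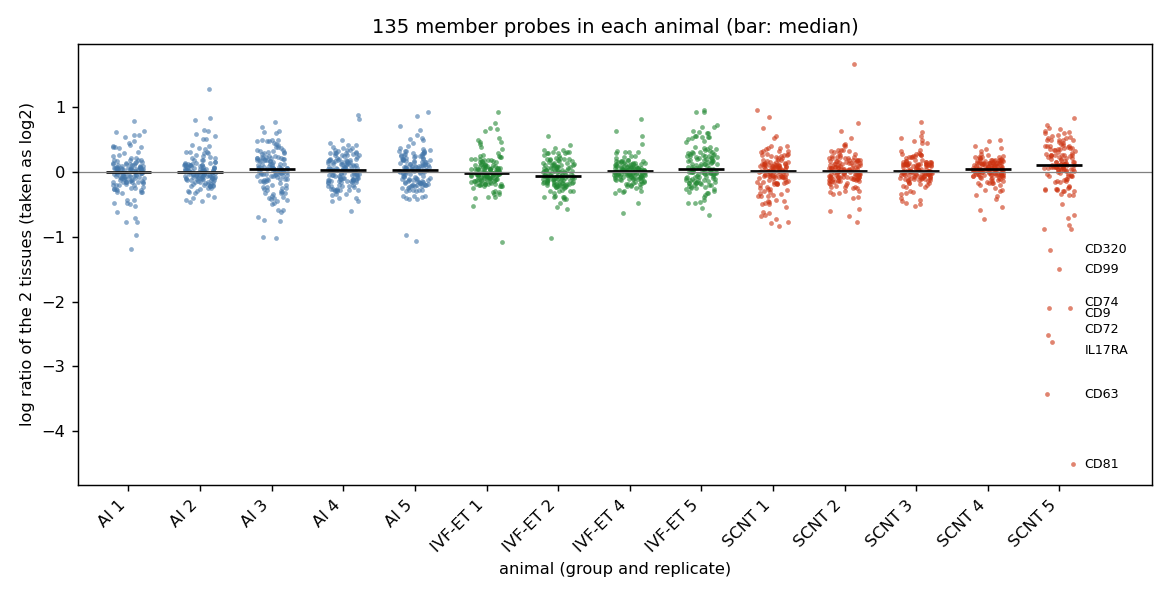
Log ratio of the 2 tissues (taken as log2, vertical axis) of the 135 member probes in each of 14 animals (horizontal axis), 1 point for each probe, with a bar at the median. The medians lie between -0.07 and 0.11, and SCNT replicate 5 holds 8 points below -1, with their genes written beside them.

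The median member lay at 0.03 in SCNT, 0.02 in IVF-ET and 0.01 in AI, and the median of all probes at 0.000315, 0.00188 and 0.00441. Positive means were found for 86, 74 and 79 of the 135 members in SCNT, IVF-ET and AI, which is 63.7%, 54.8% and 58.5%, beside 50.2%, 50.5% and 51.7% of all probes. Without SCNT replicate 5 the SCNT count was 77 of 135, beside 51.1% of all probes, and the median member lay at 0.02. With the values read as dye ratios, not yet turned to the tissues, the SCNT count was 56 of 135, beside 51.4%. Within single animals the medians ran from -0.01 to 0.04 in AI, from -0.07 to 0.04 in IVF-ET and from 0.01 to 0.11 in SCNT. The bulk tissue does not tell fewer cells of a type from less RNA in each cell, and a ratio gives no level in either tissue.

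Epithelial and stromal probes passed more often in SCNT and in the mean of SCNT and IVF-ET. Their lists were chosen with earlier results of these data known, so these counts are descriptions only. In SCNT 3 epithelial and 4 stromal probes passed, and in IVF-ET and in AI 0 of either list did. Of 10 epithelial probes, such as keratins, cadherin and tight junction genes, 5 passed in the mean of SCNT and IVF-ET, all on the positive side, with a median of 0.46. Of 11 stromal probes, mostly collagens, 6 passed, all on the negative side, with a median of -0.63. The epithelial list had a median of 0.39 in SCNT, 0.54 in IVF-ET and -0.15 in AI, and the stromal list -0.85, -0.49 and 0.40. In single animals the epithelial median lay between 0.21 and 0.57 in SCNT, between 0.30 and 0.80 in IVF-ET and between -0.55 and 0.30 in AI, where replicates 1 and 5 were positive. Among 12 trophoblast probes 0 passed in any of the 3 groups, with 4, 0 and 0 at an unadjusted p under 0.05, and their medians were -0.37, -0.14 and -0.06 in SCNT, IVF-ET and AI. In the mean of SCNT and IVF-ET all 12 were negative, with a median of -0.29. None passed there, and 7 had an unadjusted p under 0.05 (limma), beside 15.1% of all probes. The part of these cell types in the member values was not tested.

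**Figure D2:**
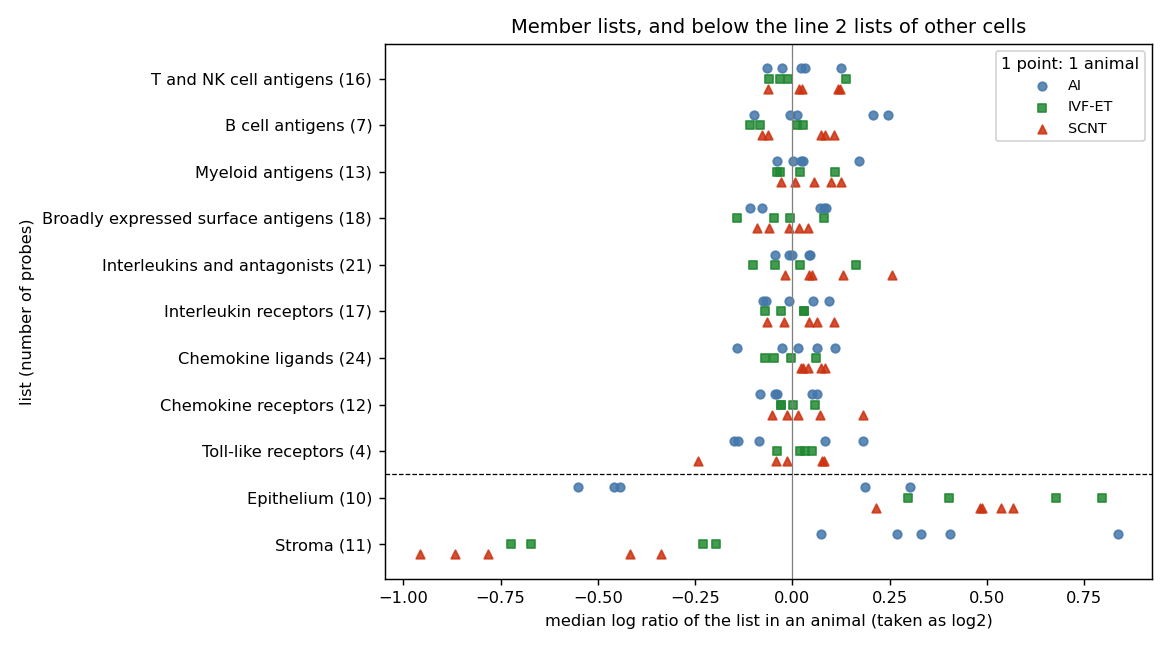
Median log ratio (taken as log2, horizontal axis) of each member list in each animal, with the number of probes in brackets, and below the dashed line the epithelial and stromal lists; circles are AI, squares IVF-ET and triangles SCNT animals. The 9 member lists stay between -0.24 and 0.26 in every animal, while the stromal list runs from -0.96 to 0.84. The 3 member probes with several symbols are not drawn, and their median ran from -0.78 to 0.47.

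Among the T and NK cell antigens, 0 of 16 probes (15 genes) passed with limma in SCNT, IVF-ET, AI or the mean of SCNT and IVF-ET, and 0 had an unadjusted p under 0.05. Their medians were 0.04 in SCNT, 0.01 in IVF-ET and -0.02 in AI, and 10, 10 and 7 probes had positive means. CD3D, a chain of the T cell receptor complex, was measured at -0.12, -0.03, 0.44, 0.13 and 0.16 in the 5 SCNT animals. In IVF-ET it was -0.02, 0.01, -0.07 and 0.20, and in AI -0.53, 0.55, -0.69, 0.30 and 0.31. The AI animals spread over both sides and enclosed those of the other groups. The group means with their standard errors were 0.12 ± 0.15, 0.03 ± 0.17 and -0.01 ± 0.15.

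CD3E, another chain of that complex, had means of 0.09 ± 0.11 in SCNT, 0.04 ± 0.12 in IVF-ET and -0.02 ± 0.11 in AI. CD4, the co-receptor of helper T cells, had 0.11 ± 0.09, -0.08 ± 0.10 and -0.16 ± 0.09. CD8A was not among the member genes measured. The 2 genes of this list with the smallest p in the mean of SCNT and IVF-ET were CD2, an adhesion molecule of T and NK cells (0.07 ± 0.06), and CD244, a receptor of NK cells. The 2 probes of CD244 gave 0.03 ± 0.06 and -0.12 ± 0.08, and in AI 0.11 ± 0.07 and -0.19 ± 0.10, on opposite sides.

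The B cell antigens comprised 7 probes of 7 genes. None passed in those 4 limma tests, and 1, CD37, had an unadjusted p under 0.05, in the mean of SCNT and IVF-ET. Their medians were 0.01 in SCNT, -0.01 in IVF-ET and 0.11 in AI, where 6 of the 7 were positive. CD79A and CD79B, the signalling chains of the B cell receptor, had means of 0.04 ± 0.09 and 0.01 ± 0.10 in SCNT. In AI animals CD79B was at -0.01, 0.01, 0.68, 0.14 and 0.21, a mean of 0.21 ± 0.10 that 1 animal led.

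CD37, a tetraspanin of B cells, was negative in all 4 IVF-ET animals, at -0.22, -0.11, -0.49 and -0.21. It was 0.12, 0.01, 0.25, -0.10 and 0.25 in AI, and the AI and IVF-ET animals did not overlap. In SCNT it was 0.07, 0.11, -0.23, 0.13 and -0.82, so the negative mean there (-0.15 ± 0.12) came from replicates 3 and 5. The mean of SCNT and IVF-ET was -0.20 ± 0.09 and did not pass (limma, adjusted p = 0.275). CD72, an inhibitory receptor of B cells, had -0.22 ± 0.21 in that mean. Outside the rule, the B cell adaptor BLNK passed on the positive side in the mean of SCNT and IVF-ET (0.60 ± 0.15, adjusted p = 0.0385). The immunoglobulin gene IGHG1 passed on the negative side in SCNT (-1.55 ± 0.33, adjusted p = 0.0236). Each was the only 1 to pass in its test among 34 probes of leukocyte genes without such a symbol. Of all probes 3.37% passed in the mean and 1.85% in SCNT. The medians of the 34 were 0.01 in SCNT, 0.01 in IVF-ET and -0.02 in AI.

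Of the 13 probes (12 genes) of myeloid antigens, 0 passed with limma in the same 4 tests, and 0 had an unadjusted p under 0.05. The medians were 0.06 in SCNT, 0.06 in IVF-ET and -0.01 in AI. CD14, the co-receptor for bacterial lipopolysaccharide on monocytes, had 2 probes, at -0.03 ± 0.09 and 0.17 ± 0.11 in SCNT and 0.04 ± 0.09 and -0.01 ± 0.11 in AI. CD68, a lysosomal protein of macrophages, was positive in all 5 SCNT animals (0.11, 0.13, 0.01, 0.03 and 0.33), with a mean of 0.12 ± 0.14. In IVF-ET it was -1.08, -0.11, 0.22 and 0.10, and the negative mean of -0.22 ± 0.16 came from replicates 1 and 2.

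CD163, the scavenger receptor of macrophages for haemoglobin, was 0.44, 0.03, 0.22, -0.11 and 0.93 in AI. It was 0.12, 0.55, -0.00 and -0.43 in IVF-ET and 0.09, 0.32, 0.11, -0.07 and 0.63 in SCNT. The 3 groups overlapped, with means of 0.30 ± 0.15, 0.06 ± 0.16 and 0.22 ± 0.15. The T cell costimulator CD86 had 0.14 ± 0.08 in the mean of SCNT and IVF-ET, and CD5L, a secreted macrophage protein, 0.14 ± 0.11.

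CD59 was the member that passed. It is an inhibitor of the complement membrane attack complex, anchored to the surface of most cells. In the SCNT animals its log ratio was 0.37, 0.27, 0.77, 0.48 and 0.52, and in IVF-ET animals 0.52, 0.33, 0.08 and 0.24. In AI animals it was -0.07, -0.45, -0.33, -0.13 and 0.65. As means of 2 arrays, all 9 SCNT and IVF-ET animals were positive, while in AI replicate 5 alone was. The 2 arrays of an animal lay on opposite sides in IVF-ET replicates 4 (0.25 and -0.09) and 5 (0.64 and -0.16). They also did in SCNT replicate 5 (1.07 and -0.03) and in AI replicates 1 (0.62 and -0.76), 2 (0.01 and -0.91) and 4 (-0.44 and 0.18).

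The mean of SCNT and IVF-ET was 0.39 ± 0.09 for CD59, a difference of 1.31-fold between the tissues (limma, adjusted p = 0.0312). The SCNT mean alone was 0.48 ± 0.12 (SD 0.19 over 5 animals, adjusted p = 0.0631) and the IVF-ET mean 0.30 ± 0.14 (SD 0.18 over 4 animals, adjusted p = 0.628). AI stood at -0.07 ± 0.12 (SD 0.43 over 5 animals). The epithelial median had the same sign as CD59 in all 9 SCNT and IVF-ET animals, and in AI it was 0.19, -0.46, -0.44, -0.55 and 0.30. The part of epithelium in the CD59 ratio was not tested.

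The call for CD59 rests on few animals. When 1 of the 9 SCNT and IVF-ET animals was left out it was kept in 3 fits and lost in 6, namely without IVF-ET replicate 1 (adjusted p = 0.137), 2 (0.084) or 5 (0.0704), or SCNT replicate 1 (0.0564), 3 (0.0751) or 4 (0.0587). The estimate stayed between 0.35 and 0.42 in those 9 fits. Leaving out an AI animal changes only the spread in this mean, and the call was kept in all 5 such fits. When IVF-ET replicate 3 entered with the sign of its first array changed, the mean was 0.42 and passed (adjusted p = 0.00838). With the sign of its second array changed, it was 0.30 and did not pass (adjusted p = 0.307). If the deposited values are read as plain dye ratios, not yet turned to the tissues, the mean was -0.15 ± 0.10, on the other side, with an adjusted p of 0.375, the highest of 23 alternatives. The lowest, with animals weighted by their quality, was 0.00379.

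**Figure D3:**
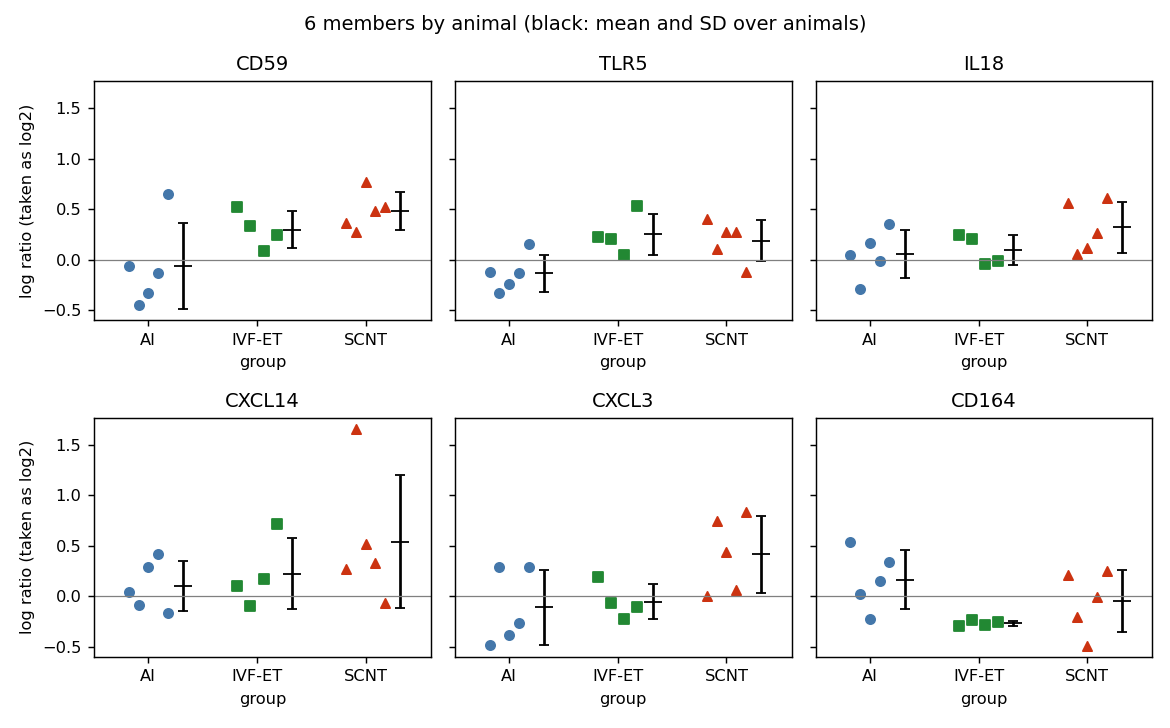
Log ratio (taken as log2, vertical axis) of 6 members in each AI, IVF-ET and SCNT animal, with the group mean and SD in black. CD59 is positive in all 9 SCNT and IVF-ET animals, and CD164 is negative in all 4 IVF-ET animals, between -0.29 and -0.24. Each point is a mean of 2 arrays, which lay on opposite sides in some of these animals for both genes.

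The other surface antigens found on many cells made up 18 probes of 15 genes with CD59. Their medians were -0.04 in SCNT, 0.01 in IVF-ET and 0.02 in AI. CD81, a tetraspanin that organises receptors in the membrane, was negative in all 5 SCNT animals as means of 2 arrays, at -0.38, -0.58, -0.45, -0.54 and -4.51. The 2 arrays of SCNT replicate 1 lay on opposite sides (-0.86 and 0.10), and those of replicate 3 gave -0.86 and -0.05. In AI it was -0.20, 0.41, 0.62, 0.50 and 0.18, and in IVF-ET -0.40, -0.10, 0.11 and 0.00. The SCNT and AI animals did not overlap.

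SCNT replicate 5 set both the size and the spread for CD81. With it the SCNT mean was -1.29 ± 0.42 and did not pass (adjusted p = 0.137). Without it the mean was -0.49 ± 0.12 and passed (adjusted p = 0.0406, the lowest of 23 alternatives, which reached 0.771). CD164, a sialomucin of blood progenitors and other cells, had animal means of -0.29, -0.24, -0.29 and -0.26 in IVF-ET. They did not overlap AI, at 0.54, 0.02, -0.23, 0.15 and 0.34. The narrow range in IVF-ET is one of means, as the 2 arrays gave -0.82 and 0.34 in replicate 2 and 0.24 and -0.75 in replicate 5. Its IVF-ET mean was -0.27 ± 0.12 (adjusted p = 0.622), in a test that uses 1 spread for each probe, shared by the groups.

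Replicate 5 of SCNT stood apart for other antigens too. In it 8 members lay below -1, while every other animal had at most 2 members beyond 1 on either side. Its 2 arrays correlated at r = 0.75 over the members, and those of the other 13 animals between -0.28 and 0.39. The SD over members was 0.74 in this animal and between 0.18 and 0.32 in the others. Over all probes its SD was 0.70, so the wide spread was not particular to the members.

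The 8 members were CD81 (-4.51), CD63 (-3.43), IL17RA (-2.63), CD72 (-2.52), a probe of CD9 (-2.11), CD74 (-2.09), a probe of CD99 (-1.50) and CD320 (-1.20). CD63 is a tetraspanin of late endosomes, and CD74 is the invariant chain of MHC class II. IL17RA is the shared receptor chain of the interleukin 17 family. For CD63 the 2 arrays gave -2.96 and -3.90, and the other 4 SCNT animals lay between -0.14 and 0.04. For CD74 the arrays gave -1.53 and -2.65, and the others lay between -0.60 and 0.29. Both arrays were below the other animals for each of the 8.

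Not every probe of a gene took part. The 2 probes of CD9 stood at -2.11 and 0.10 in SCNT replicate 5, and those of CD99 at -0.14 and -1.50. In the other 4 SCNT animals the first CD9 probe was positive, at 0.68, 0.19, 0.28 and 0.47, and in IVF-ET it was 0.49, 0.03, 0.63 and 0.31. Without SCNT replicate 5 this probe passed in the mean of SCNT and IVF-ET (0.38 ± 0.10, adjusted p = 0.0385, the lowest of 23 alternatives, which reached 0.987), and with it the mean was 0.13 ± 0.21 (adjusted p = 0.861). The second probe of CD9 gave 0.03 ± 0.06.

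**Figure D4:**
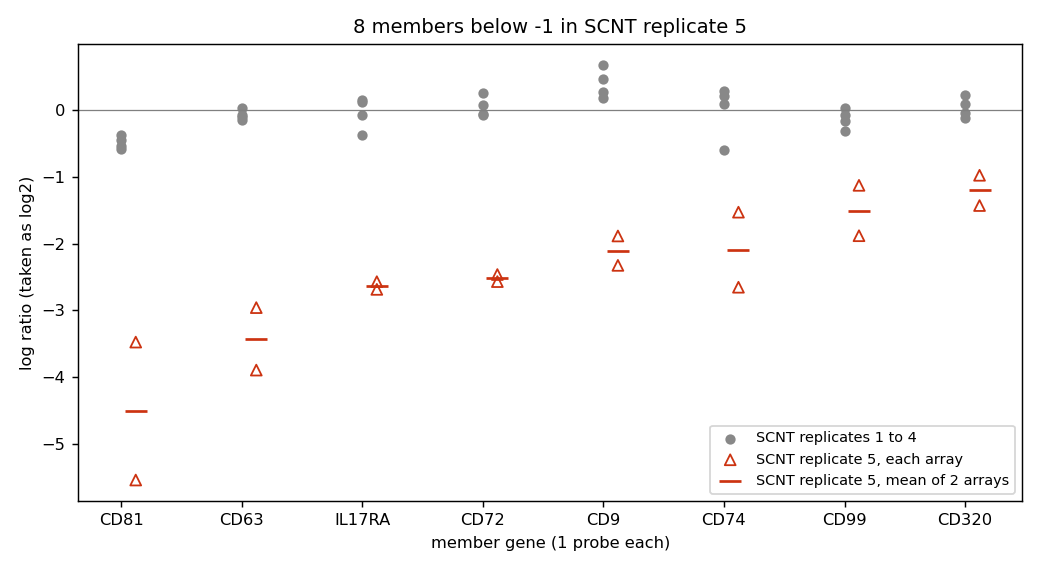
Log ratio (taken as log2, vertical axis) of the 8 members below -1 in SCNT replicate 5 (triangles: its 2 arrays, bar: their mean) beside SCNT replicates 1 to 4 (grey circles). CD81 reaches -3.48 and -5.54 on the 2 arrays, and the other 4 animals lie between -0.58 and -0.38.

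The 21 interleukins and antagonists, 1 probe for each gene, had the highest median of the 9 lists in SCNT, 0.10, with 18 of 21 means positive. The median was 0.02 in IVF-ET and 0.01 in AI, and with limma 0 passed in the 4 tests, with 3 at an unadjusted p under 0.05 in SCNT, 0 in IVF-ET, 0 in AI and 2 in the mean of SCNT and IVF-ET. In the 5 SCNT animals the list's median was -0.02, 0.05, 0.04, 0.13 and 0.26. IL18, a cytokine that drives interferon gamma from T and NK cells, was positive in all 5 SCNT animals, at 0.56, 0.05, 0.11, 0.26 and 0.61. In IVF-ET it was 0.24, 0.21, -0.05 and -0.01, and in AI 0.05, -0.29, 0.17, -0.02 and 0.35.

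The SCNT mean of IL18 was 0.32 ± 0.10, a 1.25-fold difference (adjusted p = 0.129). Its soluble inhibitor IL18BP, chosen after its values were seen, was -0.29, 0.17, -0.49, -0.21 and -0.35 in SCNT, a mean of -0.23 ± 0.11 (adjusted p = 0.313). IL13, a cytokine of type 2 responses, was also positive in all 5 SCNT animals, at 0.06, 0.10, 0.16, 0.37 and 0.26. It did not overlap IVF-ET, where it was -0.05, 0.05, 0.02 and -0.18. The difference between SCNT and IVF-ET was 0.22 ± 0.11 (adjusted p = 0.915). IL12B, the p40 chain shared by interleukins 12 and 23, had 0.19 ± 0.07 in the mean of SCNT and IVF-ET (adjusted p = 0.217).

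IL17F, an interleukin that acts on epithelium, was among the members whose AI and IVF-ET animals did not overlap (2.96%, beside 3.32% of all probes). It was -0.78, -0.16, -0.29, -0.13 and 0.06 in AI and 0.23, 0.30, 0.15 and 0.12 in IVF-ET, with no overlap. In SCNT it was 0.85, -0.09, 0.08, 0.13 and -0.12. The difference of IVF-ET from AI was 0.46 ± 0.19 (adjusted p = 0.519) and that of SCNT from AI 0.43 ± 0.18 (adjusted p = 0.308). Both share the AI animals. With the sign of the AI group turned they became -0.06 and -0.09.

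Of the 17 probes (14 genes) of interleukin receptors, 0 passed with limma, and 1 in IVF-ET and 1 in AI had an unadjusted p under 0.05. The medians were 0.03, 0.02 and -0.01 in SCNT, IVF-ET and AI. IL17RC, a partner chain of IL17RA, was positive in IVF-ET at 1 probe (0.38, 0.26, 0.30 and 0.14) and mixed at the other (0.45, -0.02, -0.21 and -0.36). Their values in the mean of SCNT and IVF-ET were 0.16 ± 0.10 and 0.02 ± 0.14. IL21R, the receptor of interleukin 21, had -0.21 ± 0.09 in IVF-ET (adjusted p = 0.581). IL1R2, a decoy receptor for interleukin 1, had AI means of -0.22 ± 0.10 and -0.01 ± 0.09 at its 2 probes.

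The chemokine ligands were the largest list, with 24 probes of 22 genes. None passed with limma, and 2 had an unadjusted p under 0.05 in SCNT, both on the positive side, with 0 in IVF-ET, 0 in AI and 1 in the mean of SCNT and IVF-ET. The medians were 0.03 in SCNT, 0.05 in IVF-ET and 0.04 in AI. Kept outside this list were the 2 probes annotated with both CXCL12 and SDF1. Both were negative at an unadjusted p under 0.05 (limma) in SCNT (-0.38 and -0.36) and in that mean (-0.28 and -0.27). Neither passed there (smallest adjusted p = 0.100 and 0.0861), and in AI both were positive. CXCL14, a chemokine made by epithelium, was 0.27, 1.66, 0.52, 0.32 and -0.07 in SCNT, 0.11, -0.10, 0.17 and 0.72 in IVF-ET and 0.04, -0.08, 0.29, 0.42 and -0.16 in AI. The SCNT mean, 0.54 ± 0.18 (adjusted p = 0.154), was led by replicate 2, whose value was the highest of any member in any animal.

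CXCL3, a ligand of CXCR2 that attracts neutrophils, was 0.01, 0.75, 0.44, 0.06 and 0.83 in SCNT and 0.19, -0.07, -0.23 and -0.11 in IVF-ET. In AI it was -0.48, 0.29, -0.38, -0.26 and 0.29. The SCNT mean was 0.42 ± 0.14 (adjusted p = 0.144), and the difference from IVF-ET was 0.47 ± 0.21 (adjusted p = 0.915). CXCL8, the main neutrophil chemokine, was positive in 4 of 5 SCNT animals (-0.35, 0.40, 0.23, 0.18 and 0.34) and negative in all 4 IVF-ET animals (-0.16, -0.13, -0.07 and -0.46). The difference of SCNT from IVF-ET was 0.36 ± 0.16 and did not pass either (adjusted p = 0.915). CCL4, a chemokine that attracts monocytes and T cells, had 0.19 ± 0.09 in the mean of SCNT and IVF-ET.

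The interferon-induced ligands CXCL9 and CXCL10, chosen after their values were seen, lay on the negative side in SCNT. CXCL9 was -0.44, -0.09, -0.23, -0.42 and -0.29 there, and 0.75, -0.09, 0.30 and -0.39 in IVF-ET. Its SCNT mean was -0.29 ± 0.16 (adjusted p = 0.432). CXCL10 was -0.05, -0.77, -0.53, -0.59 and 0.40 in SCNT, with a mean of -0.31 ± 0.22. The third ligand of their receptor CXCR3, CXCL11, had an SCNT mean of 0.10 ± 0.12.

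Of 12 probes (10 genes) of chemokine receptors, 0 passed with limma, and 1 in IVF-ET and 1 in AI had an unadjusted p under 0.05. The medians were 0.04 in SCNT, -0.01 in IVF-ET and -0.02 in AI. CCR9, the receptor of CCL25 on lymphocytes that home to the gut, had 0.23 ± 0.10 in IVF-ET (adjusted p = 0.584), with replicate 5 at 0.60 and the others at -0.02, 0.30 and 0.03. CXCR5, the receptor that draws B cells to follicles, was -0.72, 0.01, -0.45, -0.12 and -0.37 in AI, a mean of -0.33 ± 0.14 with an adjusted p of 1. The 2 probes of CXCR1, a receptor for CXCL8, gave 0.05 ± 0.06 and 0.09 ± 0.07 in the mean of SCNT and IVF-ET.

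The Toll-like receptors with 1 symbol were 4 probes of 4 genes. None passed with limma, and 1, TLR5, had an unadjusted p under 0.05, in IVF-ET and in the mean of SCNT and IVF-ET. TLR5, the receptor for flagellin, was positive in all 4 IVF-ET animals, at 0.22, 0.20, 0.05 and 0.53, and in 4 of 5 SCNT animals, at 0.40, 0.10, 0.27, 0.28 and -0.12. In AI it was -0.12, -0.33, -0.24, -0.14 and 0.16. The mean of SCNT and IVF-ET was 0.22 ± 0.07 (adjusted p = 0.109). Without SCNT replicate 5 it was 0.26 ± 0.07 and passed (adjusted p = 0.0346), within a range from 0.0184 to 0.327 over 23 alternatives.

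TLR3, the receptor for double-stranded RNA, pointed the other way in the same mean, at -0.20 ± 0.11 (adjusted p = 0.437). It was negative in all 4 IVF-ET animals (-0.35, -0.22, -0.04 and -0.12) and in 4 of 5 SCNT animals. Of 38 probes of Toll-like and cytokine signalling genes, 1 passed in the mean of SCNT and IVF-ET, beside 3.37% of all probes. It was the kinase IKBKB that activates NF-kappa B (0.27 ± 0.07, limma, adjusted p = 0.0443). None of 23 probes of antigen presentation genes passed in that mean, in SCNT, in IVF-ET or in AI, with 4, 2, 1 and 0 of them at an unadjusted p under 0.05.

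**Figure D5:**
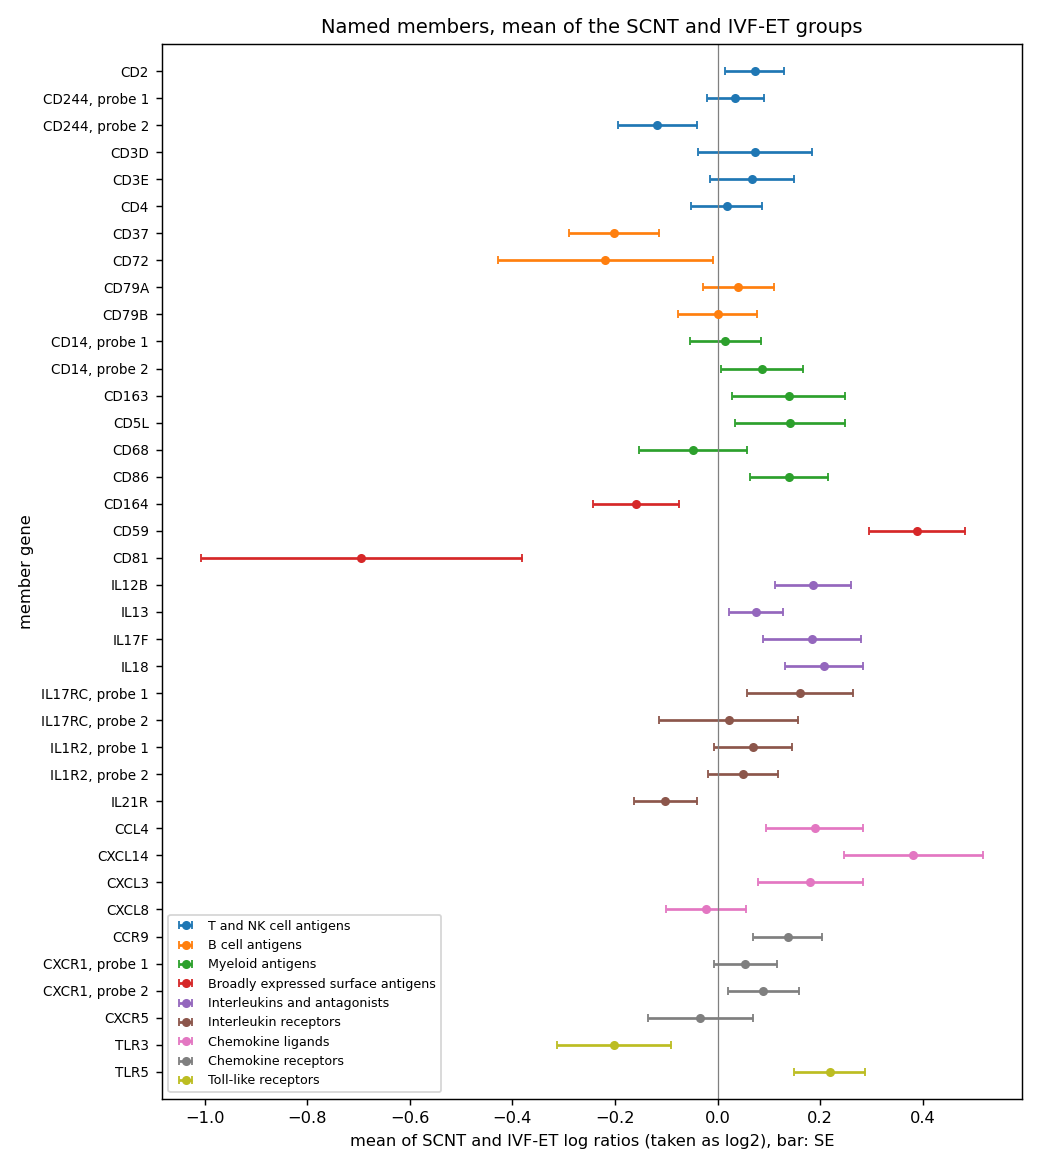
Mean log ratio of SCNT and IVF-ET (taken as log2, horizontal axis) with its SE for the named members (vertical axis), coloured by list; genes with 2 probes have 2 lines. CD59 lies at 0.39 and CD81 at -0.69, with the widest bar (SE 0.31).

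Differences between the groups were tested in the same fit. Between SCNT and IVF-ET, 0 members and 0% of all probes passed, with 3 members at an unadjusted p under 0.05 (CXCL8, CXCL3 and IL13). Between SCNT and AI, 0 members passed beside 0.97% of all probes, with 9 members at an unadjusted p under 0.05. Between IVF-ET and AI, 0 members passed beside 0.0579%, with 5 at an unadjusted p under 0.05. The 3, 9 and 5 are 2.22%, 6.67% and 3.70% of the members, beside 4.41%, 12.9% and 8.37% of all probes. The smallest adjusted p of a member in these differences was 0.0578, for a probe annotated with both CXCL12 and SDF1 between SCNT and AI. The 2 probes with these symbols gave -0.67 and -0.58 there, on the same side. Of 24 alternatives, 1 of the probes passed in 4 and the other in 1.

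CD59 differed by 0.55 ± 0.18 between SCNT and AI (adjusted p = 0.166) and by 0.19 ± 0.19 between SCNT and IVF-ET. Without AI replicate 5 the difference from AI was 0.72 ± 0.13 and passed (adjusted p = 0.0141). For TLR5 the difference of IVF-ET from AI was 0.39 ± 0.14 (adjusted p = 0.424), and for CD164 it was -0.43 ± 0.17 (adjusted p = 0.470). The animals of SCNT and AI did not overlap for 2 members (1.48%, beside 2.84% of all probes), those of IVF-ET and AI for 4 (2.96%, beside 3.32%) and those of SCNT and IVF-ET for 1 (0.741%, beside 2.27%). Over all probes the mean of the AI animals correlated at r = -0.29 with SCNT and -0.27 with IVF-ET, and IVF-ET and SCNT at 0.45. Across arrays of 1 dye orientation, 4 pairs correlated below -0.3, the lowest at -0.40, so the side of an array is not settled. With the sign of the AI group turned, 0% of all probes and 0 members passed in either comparison with AI, and CD59 differed by 0.41 ± 0.18 between SCNT and AI.

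Genes with 2 probes allow a check within the array, and there were 12 of them. The values of the 2 probes over the 14 animals correlated above 0 for 9 of the 12, with a median r of 0.11, and their SCNT means had the same sign for 7. The highest was CXCR1 (r = 0.57) and the lowest CCR1, a receptor for CCL3 and CCL5 (r = -0.25). These are descriptions over animals, and the files do not say whether the 2 probes of a gene lie in the same transcript. After removal of the dye effect, the paired arrays of 1 cow correlated over the members at a median of 0.06 in AI, -0.01 in IVF-ET and 0.27 in SCNT, which limits what a single animal's value can show.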

How the data were processed

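The deposited values hold, for every spot, a log ratio between both channels, taken here as log2. Per the labels' protocols, RNA was labelled with Cy3 or Cy5. How the authors normalised them, which channel is the numerator and the log base are not given in the sources used here. Adjacent duplicate spots were averaged into 13824 probes, each array was centred on its median (27648 spots, 26744 to 27643 with a value), and symbols came from the platform annotation. All 120 member genes had a gene ID in the ARS-UCD2.0 table.

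Values were taken as already turned to the tissues, since the 2 arrays of an animal then correlated at a median r of 0.13, which does not settle the choice. After the dye effect of each probe was removed, both arrays of a cow gave 1 mean value, and the animal is the replicate. The p-values rest on the spread of these animal means, which also holds the differences between arrays of a cow. The number of animals limits the precision. limma 3.58.1 in R 4.3.3 fitted 3 group means (lmFit, eBayes) with Benjamini-Hochberg adjustment over 13818 probes. Errors after ± are standard errors of that fit unless called SD. The code was tested on simulated data.

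Members and lists were chosen with earlier results of these data known, and CD5L and CD300H joined the myeloid list after the annotation was seen. Named are members past the threshold, the 3 smallest p-values on each side and in each difference, 2 genes from each list and the lineage markers. Alternatives were the dye-ratio reading, both turnings of IVF-ET replicate 3, the AI sign, separate fits, array scaling, single spots, complete probes, animal weights, a robust prior and leaving out each animal. No coordinates are given, since the deposited data name no build, and no sequences are given, since none were at hand.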

Additional observations from a re-analysis of the deposited data

Results flagged for a closer look

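In 11 cases, a named member had 1 animal far from the others of its group, by Dixon's test at the 95% level, which chance alone passes in about 1 in 20 groups. Over all members this happened in 36 of 405 member-by-group sets (8.89%): 10 in AI (7.41%), 6 in IVF-ET (4.44%) and 20 in SCNT (14.8%), where replicate 5 was the far animal 9 times and replicate 1 7 times.

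In SCNT replicate 5, CD81 stood at -4.51 and CD72 at -2.52, with the other 4 animals between -0.58 and -0.38 and between -0.08 and 0.25. In SCNT replicate 1 there were 3 such members: CD79A at -0.27, CXCL8 at -0.35 and IL17F at 0.85. CD79B stood at -0.41 in SCNT replicate 2, and a probe of CXCR1 at -0.043 in SCNT replicate 4. That probe of CXCR1 also stood at 0.35 in IVF-ET replicate 5. A probe annotated with both CXCL12 and SDF1 lay at -0.57 in IVF-ET replicate 2. In AI, CCR9 lay at -0.20 in replicate 2 and a probe of IL17RC at 0.56 in replicate 5. What sets these animals apart was not tested.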

How the results depend on the processing

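The count of members passing was 0 in SCNT, IVF-ET, AI and the 3 differences, and 1 in the mean of SCNT and IVF-ET. It stayed at 0 in IVF-ET, between SCNT and IVF-ET and between IVF-ET and AI under every alternative run. Reading the values as dye ratios gave 5 of 135 in AI and 6 in the mean, beside 360 and 252 of 13818 probes. All these members were negative, IL6 (-0.94 and -0.61) among both. There CD59 turned to -0.15 and CD5L to -0.33 in the mean. At an unadjusted p under 0.05 (limma) this reading gave 34 of 135 members in the mean, beside 2878 of 13818 probes. The few calls among members in the main fit thus depend on the reading. Scaling the arrays gave 1 in SCNT, 2 in the mean and 1 between SCNT and AI, beside 344, 630 and 172 of 13818 probes. Animal weights gave 3, 6 and 1, beside 728, 1237 and 347. Single spots gave 2 in the mean and 1 between SCNT and AI, beside 420 and 136 of 13817 probes. With IVF-ET replicate 3 kept, the mean had 2 or 0, by which array was turned, beside 794 or 0 of 13818 probes. Leaving out 1 animal gave 0 to 1 in SCNT, 0 to 5 in the mean and 0 to 2 between SCNT and AI. The 5 came without SCNT replicate 5 (CD59, CD81, TLR5, CD9 and CXCL14), beside 745 of 13818 probes. The 2 came without SCNT replicate 5 or AI replicate 5, beside 242 of 13818 or 234 of 13820 probes. The cause was not tested. Among the named members, a result passed only under an alternative 18 times, and 240 times one that passed neither way changed side. The 2 tissues were paired within each animal by their ratio. Animals could not be paired between groups, because replicate numbers name different animals in each group.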
